A study of Mus musculus with 15 samples.

Results

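The expression of 10 genes of sulfur amino acid metabolism, serine synthesis and the ATF4 response was followed in derivatives of NMuMG, a line of normal mouse mammary gland epithelium. The 10 genes were Cth, Cbs, Phgdh, Psat1, Shmt2, Mthfd2, Asns, Chac1, Trib3 and Atf4. They were taken by gene name and were selected on the measured CPM of Cth, which was higher in FAM3C KO. The values of the FAM3C KO comparison are therefore a description, and no test is given for these genes there. All 10 were among the 13893 genes of the knockout dataset and the 15023 genes of the knockdown dataset, and all 10 passed the filter on low values (a mean of at least 0.5 CPM, the read count scaled to the size of the library), which left 12621 and 11384 genes.

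The knockout dataset held 11 libraries, each from 1 RNA sample of 1 line. All lines carried an shRNA against PCBP1, an RNA-binding protein. The shPCBP1 group held 4 lines, of which CT clones 1 to 3 had received Cas9 without a gene-specific guide and the fourth was left unaltered. The FAM3C KO group (genotype FAM3C -/-) held 3 clones and the LIFR KO group (LIFR -/-) held 3 clones. A single line lacked both FAM3C, a secreted cytokine-like protein, and LIFR, the receptor of leukemia inhibitory factor. The labels do not say from which clone this double KO was made. The knockdown dataset held 2 samples of shPCBP1 cells and 2 of NMuMG cells. The labels give the latter no treatment, whereas the study describes control cells with a scrambled shRNA, shSCR. Nothing states that the samples of a pair came from separate cultures, so p-values there measure the spread between samples that may be technical replicates.

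Transsulfuration makes cysteine from methionine-derived homocysteine. Cbs (cystathionine beta-synthase) joins homocysteine to serine, and Cth (cystathionine gamma-lyase) cleaves the product, cystathionine, to release cysteine, a building block of glutathione. Serine itself is made from a glycolytic intermediate by Phgdh, Psat1 and Psph in that order, and Shmt2 and Mthfd2 pass its carbon into the mitochondrial folate cycle. Atf4 is the transcription factor of the integrated stress response and is controlled largely at the level of its translation, so that its transcript need not follow its protein. Asns, which makes asparagine, Chac1, which degrades glutathione, and Trib3, a pseudokinase that feeds back on ATF4, are among its known target genes, as are genes of serine synthesis.

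ATF4 binds composite elements that contain the sequence TGATGNAA. This motif was searched on both strands in the RefSeq promoter windows of build GRCm38.p6, which run from 250 bases before to 50 bases after each transcription start. Of the 10 genes, 9 matched the table, which does not list Cth, and 3 of the 9 held the motif, against 4.51% of 27025 genes in all. These were Chac1, Trib3 and Asns, which the results below return to. The stretches are shown 5′ to 3′ on the strand of the gene with the match in capitals. The match of Chac1 begins at position -193 relative to the start and is read on the opposite strand (chr2:119350992-119351228, plus strand). That of Trib3 begins at base 15 after the start, also on the opposite strand (chr2:152344028-152344057, minus strand). That of Asns begins at position -23 on the strand of the gene (chr6:7693214-7693243, minus strand). The matches are a description of the letters in these windows and do not show binding.
Chac1: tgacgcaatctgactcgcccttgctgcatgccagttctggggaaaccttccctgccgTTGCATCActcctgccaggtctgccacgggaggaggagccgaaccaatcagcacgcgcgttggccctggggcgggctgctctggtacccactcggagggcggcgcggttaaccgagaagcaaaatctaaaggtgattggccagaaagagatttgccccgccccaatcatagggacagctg
Trib3: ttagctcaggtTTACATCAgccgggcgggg
Asns: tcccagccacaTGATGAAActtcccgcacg

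The libraries of the knockout dataset differed beyond their labels. In LIFR KO clones 2 and 3 and in the double KO, the deviation of a gene from the shPCBP1 mean followed its GC content (Spearman's rho -0.74, -0.733 and -0.69 across 12603 genes), against -0.275 to 0.221 in the other 8 libraries. Mitochondrial genes took 7.16 to 8.58% of the listed CPM in these 3 libraries and 3.14 to 4.06% in the others. Values corrected for GC content (a loess curve of each library's deviation was subtracted) are therefore given beside results that rest on these libraries. Genes without reads carry the smallest value of their library. If that value were worth 1 read the totals would be 16031859 to 46901675 reads, which the other low values bore out only in part. The depth behind the knockdown dataset is unknown. Of 10 epithelial markers 6 were listed in each dataset, and 5 of these reached 1 CPM in every library. No endothelial or adipocyte marker reached 1 CPM in any group apart from 1 endothelial marker in FAM3C KO, and of 8 immune markers 2 reached it in every library. In the knockdown dataset Pcbp1 had 287 and 312 CPM in NMuMG, and shPCBP1 retained 14.1 and 14.2 CPM. Fam3c was at 26.4, 33.9 and 42.9 CPM in FAM3C KO and at 47.0 to 59.4 CPM in shPCBP1. In LIFR KO the Lifr transcript had levels of 34.9, 29.3 and 14.6 CPM by clone, against 25.8 to 40.2 CPM in shPCBP1. Lifr was lower in FAM3C KO, at 13.5, 10.5 and 19.2 CPM by clone, and was at 4.36 CPM in the double KO. The study likewise reports less LIFR mRNA and protein after FAM3C KO. The guides were designed to excise a short coding fragment, so the level of the remaining transcript does not check either knockout.

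Cth (ENSMUSG00000028179, chr3:157894248-157925077 of GRCm38) was the gene around which the group was formed. Among the shPCBP1 lines it measured 9.04 CPM (unaltered), 7.06 CPM (CT clone 1), 10.3 CPM (CT clone 2) and 8.73 CPM (CT clone 3). Among the FAM3C KO clones it measured 27.6 CPM (clone 1), 20 CPM (clone 2) and 26.6 CPM (clone 3). All 3 clones lay above all 4 shPCBP1 lines, with means of 24.8 ± 4.13 (SD, n = 3) and 8.77 ± 1.32 CPM (SD, n = 4) and a ratio of 2.82. By clone LIFR KO stood at 6.92, 5.66 and 8.41 CPM (6.99 ± 1.38, SD, n = 3), and the double KO stood at 26.7 CPM. From the highest mean to the lowest the order was thus double KO, FAM3C KO, shPCBP1 and LIFR KO. The single double KO value lay inside the range of FAM3C KO, and the ranges of shPCBP1 and LIFR KO overlapped, so neither pair of neighbours differed beyond its spread. The 4 lines without FAM3C formed a range of their own, from 20 to 27.6 CPM, above the 7 lines that kept it, from 5.66 to 10.3 CPM.

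**Figure D1:**
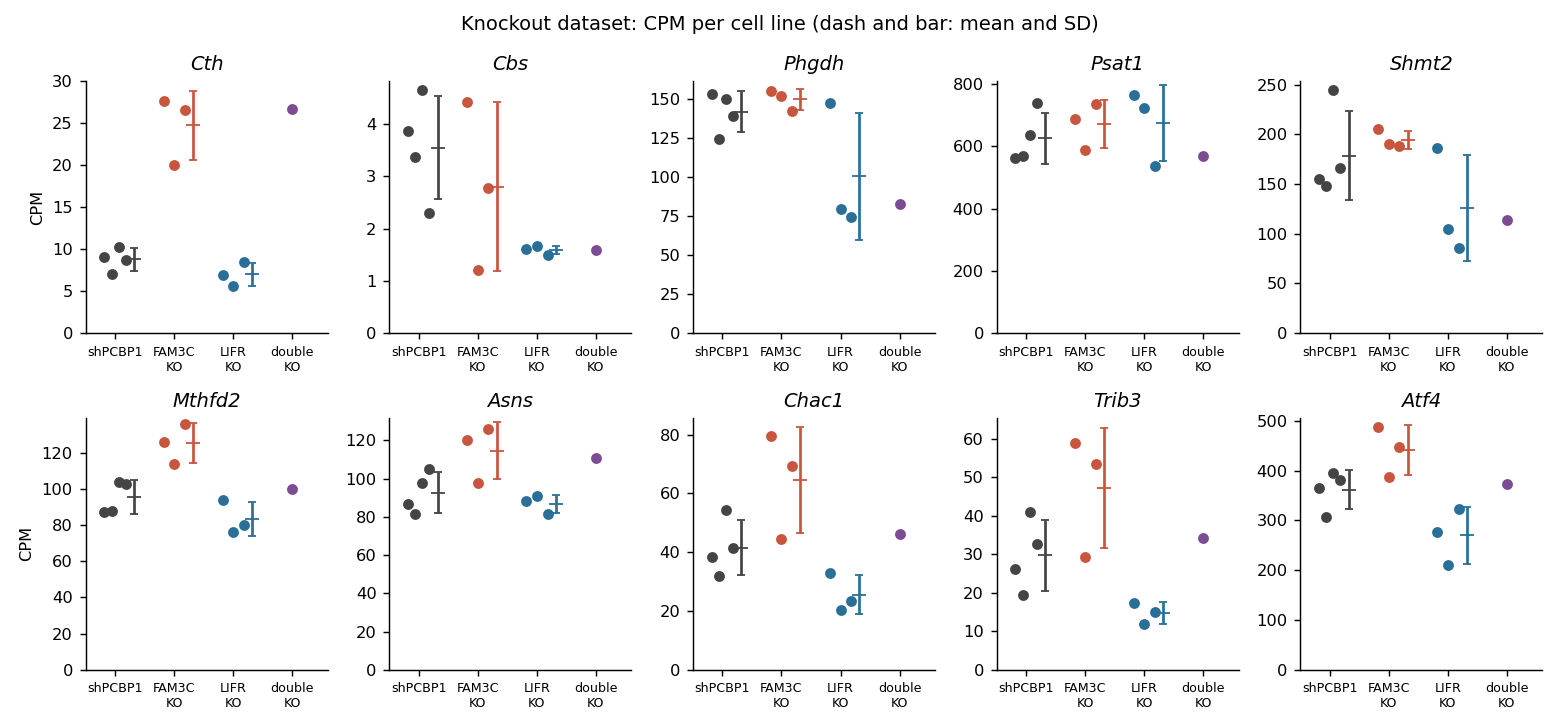
CPM (vertical axes, each from 0) of the 10 genes in the 11 lines of the knockout dataset, by group on the horizontal axis. Each point is 1 line, and the dash and bar beside a group are its mean and SD. For Cth the FAM3C KO clones and the double KO lie between 20 and 27.6 CPM and the other lines at or below 10.3 CPM, while for Cbs and Psat1 the FAM3C KO points fall among those of shPCBP1 or below them.

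Cbs, the first enzyme of transsulfuration, did not share this pattern. The unaltered shPCBP1 line had 3.87 CPM, and the CT clones had 3.37, 4.65 and 2.30 CPM in their numbered order. The FAM3C KO clones, in the same order, had 4.43, 1.2 and 2.77 CPM, a range that overlapped that of shPCBP1, with a log2 difference of -0.46. The spread was wide, with a coefficient of variation of 57.7% in FAM3C KO.

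Among the genes of serine and one-carbon metabolism, Mthfd2 was the member with separate groups. Its level was 87.2 CPM in the unaltered shPCBP1 line, 87.8, 104 and 103 CPM by CT clone, and 126, 114 and 136 CPM by FAM3C KO clone. All FAM3C KO clones were above all shPCBP1 lines, with a ratio of means of 1.32. Phgdh, with log2 differences of 0.08, and Psat1, with 0.10, had overlapping groups. Shmt2 ranged from 188 to 205 CPM in FAM3C KO, inside the range of 148 to 245 CPM in shPCBP1.

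The ATF4 target genes and Atf4 itself had higher means in FAM3C KO, with groups that overlapped. Chac1, the glutathione-degrading enzyme, measured 79.6, 44.6 and 69.4 CPM by FAM3C KO clone, against 38.5, 32, 54.2 and 41.4 CPM for the unaltered line and the CT clones in order. Trib3 was at 58.9, 29.4 and 53.5 CPM in the FAM3C KO clones and at 26.1, 19.4, 40.9 and 32.7 CPM in the shPCBP1 lines. In both genes clones 1 and 3 lay above every shPCBP1 line and clone 2 lay among them. Asns was at 120, 97.8 and 126 CPM in FAM3C KO and at 81.3 to 105 CPM in shPCBP1. Atf4 was at 488, 387 and 448 CPM in FAM3C KO and at 306 to 395 CPM in shPCBP1, with the same clone 2 inside the control range. The log2 differences were 0.62 for Chac1, 0.66 for Trib3, 0.30 for Asns and 0.29 for Atf4.

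Of the 10 genes, 2 (Cth and Mthfd2) lay wholly higher in FAM3C KO and 0 wholly lower, where 10.1% and 12.5% of all 12621 genes did so. Since this comparison chose the genes, nothing is read from that count. The clones were not alike. FAM3C KO clone 2 had the lowest value of its group in 8 of the 10 genes and clone 1 the highest in 7. Within shPCBP1, CT clone 1 had the lowest value in 7 genes and CT clone 2 the highest in 7. Without FAM3C KO clone 2 the number of genes wholly higher was 6 (16.5% of all genes in that setting), without shPCBP1 CT clone 2 it was 5 (11.1% of all genes), and after correction for GC content it was 4 (12.3% of all genes). Over all genes, 0.0872% passed the limma test as higher in FAM3C KO and 0.222% as lower (adjusted p under 0.07, the threshold of the study).

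**Figure D2:**
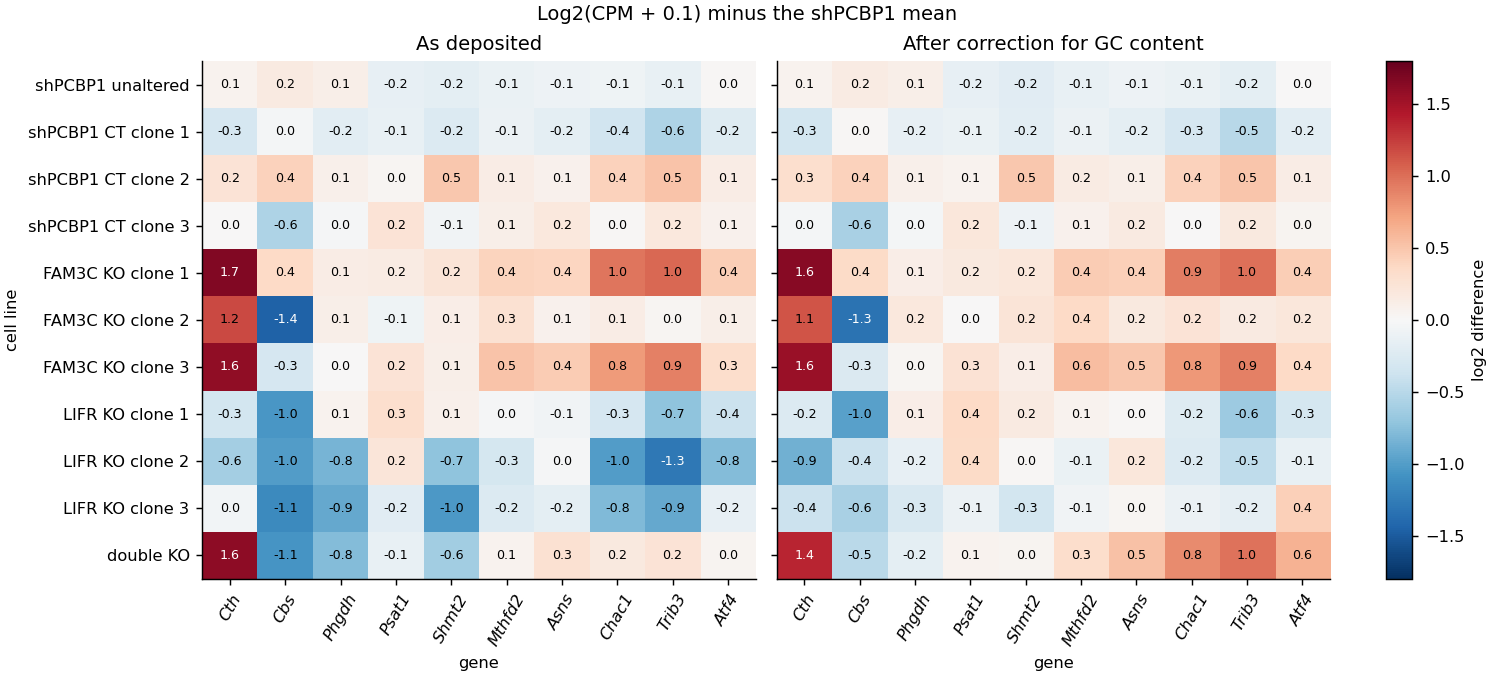
Log2(CPM + 0.1) of each gene (columns) in each line of the knockout dataset (rows) minus the mean of the 4 shPCBP1 lines, as deposited on the left and after correction for GC content on the right. Red cells are above and blue cells below that mean, and the printed value is the log2 difference. Cth is red in FAM3C KO and in the double KO on both sides, while Phgdh and Shmt2 in LIFR KO clones 2 and 3 are blue on the left and nearer to 0 on the right.

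LIFR KO was compared with the same 4 shPCBP1 lines, so the values of this comparison and those of FAM3C KO share their controls. None of the 10 genes passed the limma test at an adjusted p under 0.07 (0 of 10), where 0.911% of the 12621 genes were called higher and 5.55% lower. At an unadjusted p under 0.05 from limma, 6 of the 10 were lower and 0 higher, where 27.3% of all genes were lower and 8.42% higher. The median log2 difference of all genes was -0.16, and that of the 10 genes was -0.50. After GC correction the median of all genes was 0.027, and the 10 genes ran from -0.64 (Cbs) to 0.2 (Psat1). Phgdh, Shmt2, Mthfd2, Asns and Atf4 then lay between -0.11 and 0.08. A form of the correction that kept each library's mean gave -0.161 for all genes and -0.832 (Cbs) to 0.015 (Psat1) for the 10.

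Trib3 and Cbs were the genes whose LIFR KO clones all lay below all shPCBP1 lines, 2 of 10, where 13.2% of all genes lay wholly lower and 3.95% wholly higher. Trib3 measured 17.4, 11.8 and 15.1 CPM by LIFR KO clone, below the lowest shPCBP1 line at 19.4 CPM. Its log2 difference was -0.97 (SE 0.289, limma adjusted p = 0.0772, exact two-sided permutation p = 0.0571, where 0.0286 is the smallest possible). After GC correction the difference was -0.42 (limma adjusted p = 0.414) and the groups overlapped. From the shPCBP1 mean, LIFR KO clone 3 was then at -0.16 and CT clone 1 at -0.5. Cbs was at 1.61, 1.66 and 1.5 CPM, which is below the lowest shPCBP1 line at 2.30 CPM, and the double KO was at 1.59 CPM. Its log2 difference was -1.07 (SE 0.381, limma adjusted p = 0.0958, exact permutation p = 0.0571) and -0.64 after GC correction (limma adjusted p = 0.392). The corrected groups of Cbs also overlapped, with LIFR KO clone 2 at -0.38 and CT clone 3 at -0.58 from the shPCBP1 mean.

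Cth had a log2 difference of -0.33 in LIFR KO, with a 95% interval from -0.74 to 0.08 (limma adjusted p = 0.214). After GC correction it was -0.49 (limma adjusted p = 0.226). Cth has a GC content of 44.2%, the lowest of the 10 genes, whereas Trib3 has the highest at 58.2%.

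Chac1 measured 33.0, 20.2 and 23.3 CPM by LIFR KO clone, with clone 1 just inside the shPCBP1 range. The log2 difference was -0.71 for Chac1 and -0.44 for Atf4 (limma adjusted p = 0.092 and 0.0956). After GC correction these were -0.19 and -0.01. Atf4 stood at 276, 210 and 323 CPM in the 3 clones, and only clone 3 overlapped the shPCBP1 range. Asns had a log2 difference of -0.09, with a 95% interval from -0.36 to 0.18 (limma adjusted p = 0.61), which turned to 0.08 after GC correction or median-ratio rescaling.

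The serine and one-carbon genes split by clone in LIFR KO. Phgdh was at 147 CPM in clone 1, inside the shPCBP1 range of 124 to 153 CPM, and at 79.6 and 74.4 CPM in clones 2 and 3. Shmt2 was likewise at 186 CPM in clone 1 and at 105 and 85.4 CPM in clones 2 and 3, and the double KO was at 82.4 CPM for Phgdh and 114 CPM for Shmt2. The low values were those of the 3 libraries whose deviations followed GC content. The GC content of the genes is 56.2% for Phgdh and 57.3% for Shmt2, and its part in these values cannot be told apart from differences between the clones. Their log2 differences of -0.56 and -0.56 became -0.11 and -0.05 after GC correction. Psat1 ranged from 538 to 766 CPM in LIFR KO, overlapping shPCBP1, with a log2 difference of 0.10. Mthfd2 had a log2 difference of -0.19 and a 95% interval from -0.45 to 0.06. With LIFR KO clone 1 left out, 7 of the 10 genes passed the limma test, when 57.3% of all genes did so, and with clone 3 left out 1 passed, when 5.7% of all genes did so. The summed level of the epithelial markers was 1230 to 2110 CPM in LIFR KO and 2480 to 3180 CPM in shPCBP1, and that of the mesenchymal markers, 8 to 9 of 10 of which reached 1 CPM, was 1570 to 2310 and 2220 to 2430 CPM. The part of either in these differences was not tested.

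The double KO was set against the 3 LIFR KO clones to ask how the genes stood when FAM3C was absent as well. This comparison was added after the values had been seen, it rests on 1 library, and its spread comes from the other groups of the knockout dataset. Cth was at 26.7 CPM in the double KO and at 5.66 to 8.41 CPM in LIFR KO, a log2 difference of 1.94 (SE 0.277, limma adjusted p = 0.0699). It was the single call among the 10 genes, where 0.0159% of 12599 genes were called higher and 0.0397% lower. The adjusted p lay just under the threshold and ranged from 0.00873 to 1 over 12 alternatives in limma. The call was lost without LIFR KO clone 1 or clone 2 and kept without clone 3. An exact permutation test of 1 library against 3 cannot go below 0.25. After GC correction the log2 difference was 1.85 (limma adjusted p = 0.0947), and the double KO shares its GC dependence with LIFR KO clones 2 and 3.

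Trib3 and Chac1 were also above all 3 LIFR KO clones in the double KO, without passing the test. Trib3 was at 34.2 CPM against 11.8 to 17.4 CPM (log2 difference 1.23, 95% interval from 0.26 to 2.19, limma adjusted p = 0.794). Chac1 was at 46.2 CPM against 20.2 to 33.0 CPM (log2 difference 0.88, 95% interval from 0.07 to 1.70, limma adjusted p = 0.794). Atf4 at 373 CPM, Asns at 111 CPM and Mthfd2 at 99.8 CPM likewise lay above the LIFR KO range, with log2 differences of 0.49, 0.36 and 0.26. Cbs, Phgdh, Psat1 and Shmt2 lay within that range. After GC correction the log2 differences were 1.4 for Trib3, 1.04 for Chac1, 0.64 for Atf4, 0.45 for Asns and 0.36 for Mthfd2. The share of all genes above the LIFR KO range was not counted. A single library can lie above 3 others without a difference between groups, so nothing is read from the number of genes that did.

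The likeness of the other genes to Cth was described over the 11 libraries on the log2 scale. Pearson's r with Cth was 0.83 for Mthfd2, 0.83 for Asns, 0.81 for Chac1, 0.81 for Trib3 and 0.79 for Atf4. It was 0.30 for Shmt2, 0.20 for Phgdh, 0.07 for Cbs and -0.05 for Psat1. Chac1 and Trib3 were the closest pair (r = 0.98), and Phgdh and Shmt2 were close to each other (r = 0.93). These values describe 11 libraries that share controls, groups and the GC dependence named above, and they include the FAM3C KO libraries on which Cth was selected, so that they support nothing beyond that choice. Of 12620 genes compared, those with the highest r were 4921536K21Rik (0.97), Dguok (0.95), Hsd11b2 (0.92), Dhrs7 (0.91) and P2rx3 (0.91), while Asns ranked 102 and Mthfd2 110. The choice of these 5 genes by their likeness to Cth fixes the order of their lines. Dguok, a mitochondrial deoxyguanosine kinase, was at 13.2 to 14.8 CPM in those 4 lines and at 9.27 to 11.9 CPM in the others, and Hsd11b2, which inactivates glucocorticoids, was at 1.26 to 2.08 and 0.576 to 1.12 CPM.

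The rule that chose the genes did not use the values of the knockdown dataset, although earlier results of it were known. Loss of PCBP1 was accompanied by a lower Cth and a higher Cbs. Cth was at 4.67 and 4.85 CPM in the NMuMG samples and at 2.19 and 2.01 CPM in the shPCBP1 samples. The groups were separate, and the log2 difference was -1.14 (SE 0.107, limma adjusted p = 1.97e-06). Cbs was at 0.301 and 0.189 CPM in NMuMG and at 1.70 and 1.92 CPM in shPCBP1. It rose by 2.49 on the log2 scale (SE 0.193, limma adjusted p = 4.02e-07), from a level at which the pseudocount of 0.1 CPM lowers the difference and 2 samples set a broad interval, from 2.06 to 2.92. With a pseudocount of 1 CPM the difference was 1.18 (limma adjusted p = 6.29e-08). Of the 10 genes Cbs had the largest difference in this dataset at the pseudocount of 0.1 CPM. Its NMuMG mean of 0.245 CPM was under the filter of 0.5 CPM, so Cbs passed only through its shPCBP1 mean of 1.81 CPM. Nothing is therefore read from its p-values.

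Of the enzymes of serine synthesis, Psat1 fell and Phgdh fell slightly. Psat1 was at 549 and 540 CPM in NMuMG and at 386 and 376 CPM in shPCBP1 (log2 difference -0.51, limma adjusted p = 2.34e-09). Phgdh was at 129 and 133 CPM in NMuMG and at 122 and 120 CPM in shPCBP1 (log2 difference -0.12, limma adjusted p = 0.00111). The samples of both genes were separate. Shmt2 was at 73.3 and 67.7 CPM in NMuMG and at 62.6 and 59.7 CPM in shPCBP1, a log2 difference of -0.20 (limma adjusted p = 0.000659, and 0.0782 without shPCBP1 replicate 2, which ends the call). Mthfd2 was at 44.2 and 42.8 CPM in NMuMG and at 44.3 and 43.7 CPM in shPCBP1. Its samples overlapped, and the log2 difference of 0.02 had a 95% interval from -0.06 to 0.09.

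The ATF4 targets moved in different directions in the knockdown. Trib3 was at 37.9 and 36.1 CPM in NMuMG and at 23.4 and 24.6 CPM in shPCBP1, and fell by 0.62 on the log2 scale (limma adjusted p = 1.1e-07). Chac1 was at 21.2 and 21.6 CPM in NMuMG and at 29.4 and 28.5 CPM in shPCBP1, and rose by 0.44 (limma adjusted p = 1.87e-06). These were the closest pair across the knockout lines, and both hold the motif in the windows shown above. Asns, which holds it as well, was at 39.8 and 37.2 CPM in NMuMG and at 34.8 and 32.8 CPM in shPCBP1 (log2 difference -0.19, limma adjusted p = 0.00235, and 0.0967 without shPCBP1 replicate 2, which ends the call). The Atf4 transcript was at 330 and 323 CPM in NMuMG and at 329 and 331 CPM in shPCBP1. Its samples overlapped, and the log2 difference was 0.02 with a 95% interval from -0.03 to 0.06.

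**Figure D3:**
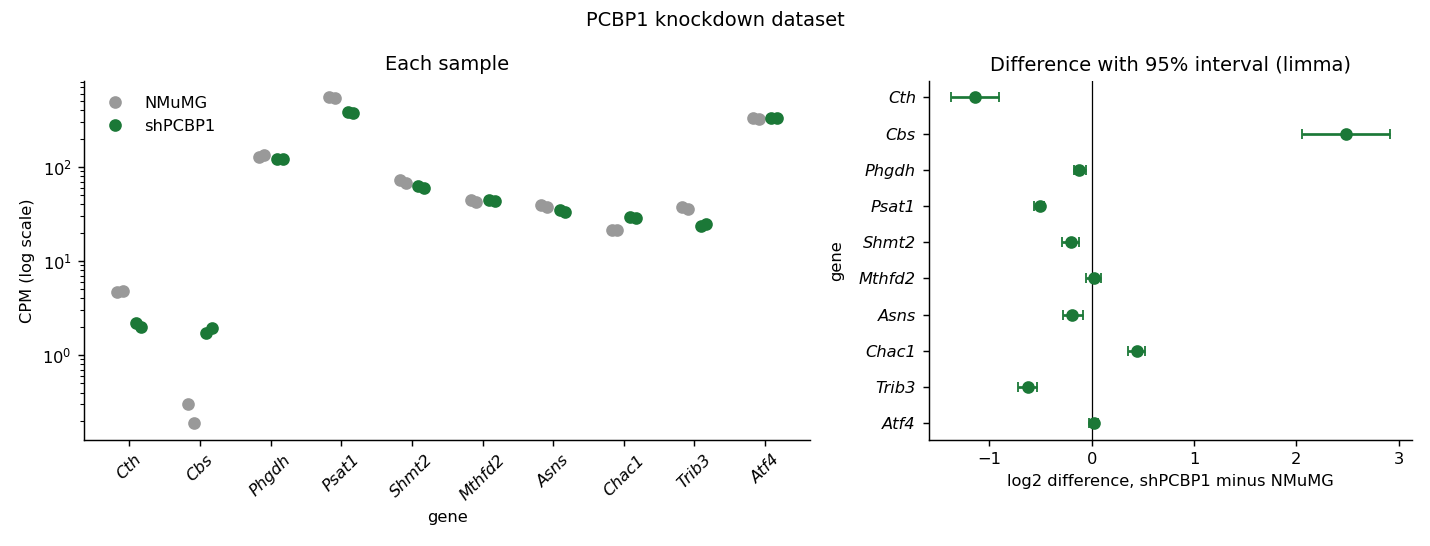
Left, CPM (log scale) of the 10 genes in each of the 2 NMuMG (grey) and 2 shPCBP1 (green) samples of the knockdown dataset. Right, the log2 difference of shPCBP1 minus NMuMG with its 95% interval from limma. Cth at -1.14 and Cbs at 2.49 lie farthest from 0 on opposite sides, and the intervals of Mthfd2 and Atf4 include 0.

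In total 8 of the 10 genes passed the test in the knockdown, 2 higher and 6 lower, where 42.1% of 11384 genes were called higher and 38% lower. With a difference of at least 1.5 fold also required, 1 was higher (Cbs) and 2 were lower (Cth and Trib3), against 16% and 15.1% of all genes. Cbs, counted among the higher genes, passed the filter on low values only through shPCBP1. Taken without direction, 8 of 10 was near the 80.1% of all genes called. By direction, 20% higher and 60% lower stood beside 42.1% and 38%, and with 10 genes nothing is read from this. The values rest on 2 samples a group, for which an exact permutation test cannot go below 0.33. The summed level of the mesenchymal markers was 749 and 768 CPM in NMuMG and 1710 and 1730 CPM in shPCBP1, and that of the epithelial markers was 2940 to 2990 and 2770 to 2830 CPM. Mitochondrial genes took 6.63 to 6.84% of the listed CPM in NMuMG and 4.75 to 4.81% in shPCBP1. The part of these shifts in the values of the 10 genes was not tested.

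The neighbours of the 10 genes were followed in 7 lists of 120 genes in all, none of them a member. In the knockdown 112 of these passed the filter, of which 65 rose and 32 fell by the limma test, and 20 rose and 8 fell by at least 1.5 fold. Their median log2 difference was 0.22, against 0.02 for all genes. Of the named genes below, each had an adjusted p of at most 8.01e-05 in limma.

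Of 14 further genes of serine synthesis and one-carbon metabolism 7 rose and 4 fell. Gldc, the decarboxylase of the glycine cleavage system, fell from 20.3 and 21.4 CPM in NMuMG to between 0.86 and 1.03 CPM in shPCBP1 (log2 difference -4.33). Psph, the last enzyme of serine synthesis, had a log2 difference of -0.65, in the direction of Psat1. Shmt1, the cytosolic counterpart of Shmt2, rose by 0.64. Of 18 genes of the methionine cycle, sulfur metabolism and glutathione 9 rose and 6 fell. Gclc, the catalytic subunit of the enzyme that limits glutathione synthesis, rose by 0.92 and Mtrr, which reactivates methionine synthase, by 1.03. Gsr, which reduces oxidised glutathione, had a log2 difference of -0.68.

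Of 19 ATF4 targets of transcription and stress, 5 rose and 12 fell, with a median log2 difference of -0.40. Atf3, a stress-induced transcription factor, rose by 1.42 and Vldlr, a lipoprotein receptor, by 1.30. Ndrg1, a stress-responsive gene, had a log2 difference of -1.79 and Stc2, a secreted glycoprotein, of -1.67. All 9 amino acid transporters of the list passed, 6 higher and 3 lower. Slc7a5, the large neutral amino acid transporter, stood at 64.1 to 65.7 CPM in NMuMG and at 179 to 180 CPM in shPCBP1 (log2 difference 1.47). Slc7a11, which imports cystine, rose by 1.00, in the same samples in which Cth fell.

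Of 21 cytosolic tRNA synthetases 17 rose and 1 fell, with Farsa at 0.81 and Hars at 0.71. Of 15 genes of the machinery of the integrated stress response 10 rose and 4 fell. Impact, an inhibitor of the amino acid sensor kinase GCN2, was at 6.28 to 6.68 CPM in NMuMG and at 41.9 CPM in both shPCBP1 samples (log2 difference 2.67). Eif2ak4, which encodes GCN2, had a log2 difference of -0.83, and Eif2b4, a subunit of the exchange factor that the response inhibits, rose by 0.65. Of 16 chaperones and related genes of the endoplasmic reticulum 11 rose and 2 fell, among them Dnajb11 at 0.74 and Creld2 at 0.67. The ATF4 targets of transcription and stress were the list in which falls outnumbered rises. Their 63.2% lower stood beside 38% of all genes, and the 81% higher of the tRNA synthetases beside 42.1%. These shares describe the lists and were not tested.

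**Figure D4:**
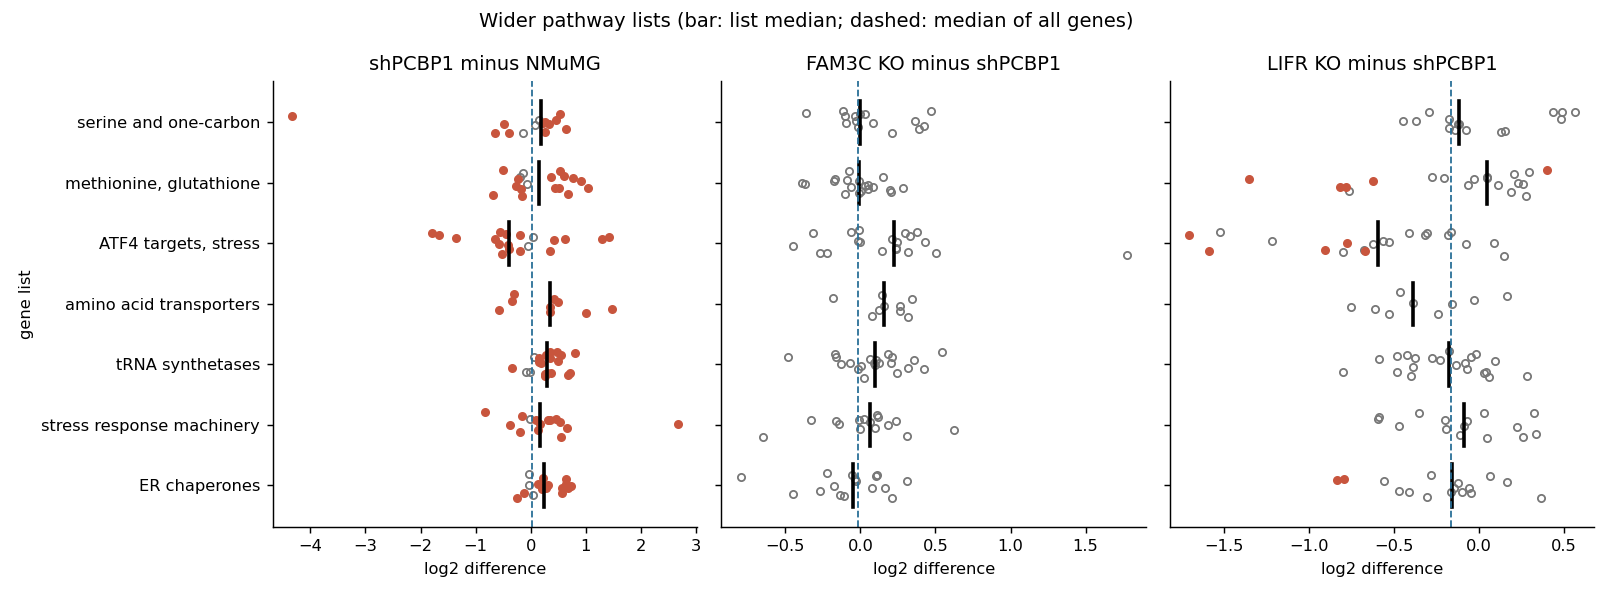
Log2 differences (horizontal axes, a scale for each panel) of the genes of the 7 wider lists in the knockdown, FAM3C KO and LIFR KO comparisons. Each circle is 1 gene, filled where it passed the limma test (not marked for FAM3C KO), the black bar is the median of the list and the dashed line the median of all genes. In the knockdown the ATF4 targets of transcription and stress have a median of -0.40 and the tRNA synthetases one of 0.30.

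In the knockouts 115 genes of these lists were tested. In FAM3C KO 0 of them passed the limma test, and 13 had an unadjusted p under 0.05, 8 higher and 5 lower, where 10.2% of all genes did. After GC correction Psph, Lars and Cars were higher, by 0.47, 0.55 and 0.34 on the log2 scale, and passed the limma test. Of all genes 1.73% passed then, against 0.309% without the correction. Psph, Lars and Cars were chosen for naming after their values were seen, in the comparison that chose the 10 genes. Nothing is read from their calls. The largest positive log2 differences were those of Adm2, a peptide hormone, at 1.77 (0.68 to 2.34 CPM in FAM3C KO and 0.0426 to 0.749 CPM in shPCBP1, overlapping) and of Eif2ak2, the kinase PKR, at 0.62 (51.2 to 61.6 and 34.1 to 42.1 CPM, separate). The largest negative ones were those of Herpud1, of endoplasmic reticulum quality control, at -0.80 (37.8 to 62.5 and 66.9 to 111 CPM) and of Eif2s3x, the gamma subunit of eIF2, at -0.65 (90.5 to 98 and 130 to 178 CPM). Both had separate groups. Adm2 averaged 0.406 CPM in shPCBP1, under the filter of 0.5 CPM, and 1.48 CPM in FAM3C KO. Its place among these genes thus rests on the group where it was high.

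In LIFR KO 1 of the 115 genes rose and 11 fell, which is 0.87% and 9.57% beside 0.911% and 5.55% of all genes. Of the 20 ATF4 targets of transcription and stress 5 fell, and their median log2 difference was -0.59. Gdf15, a stress-induced cytokine, was at 6.41 to 17.2 CPM in LIFR KO and 29.4 to 33.8 CPM in shPCBP1 (log2 difference -1.71, limma adjusted p = 0.0348). Atf5, a transcription factor related to Atf4, was at 7.82 to 11.1 and 18.9 to 42 CPM (log2 difference -1.59, limma adjusted p = 0.0388). Sqor and Mpst, enzymes of sulfide metabolism, had log2 differences of -1.35 and -0.82, and the chaperone genes Herpud1 and Creld2 had -0.84 and -0.80. Mtap, of the methionine salvage pathway, rose by 0.40. After GC correction Gdf15 (log2 difference -0.99, limma adjusted p = 0.0503) and Mtap (0.34, limma adjusted p = 0.0668) passed and the other 10 genes did not. The corrected differences were -1.08 for Sqor, -0.82 for Atf5, -0.62 for Herpud1, -0.39 for Creld2 and -0.15 for Mpst. No corrected median was taken for the ATF4 targets. The count of 12 listed genes also depended on each library, as did the share of all genes called. It was 66 without LIFR KO clone 1 (57.3% of all genes), 7 without clone 3 (5.7%) and 1 without CT clone 1 (0.38%). It was 0 without LIFR KO clone 2, CT clone 2, CT clone 3 or the unaltered line, when 0.0396 to 0.357% of all genes were called.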

How the data were processed

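RNA-Seq values of 15 libraries were used. The authors aligned the reads, quantified genes in Partek Flow and deposited CPM for each library, with a small value in place of 0. The submitters' notes name GRCm38 and mm10. Means and a fold change that the authors also deposited for the knockdown dataset were not used. Low values were not whole multiples of 1 read often enough to infer read counts, and count models were not applied. Gene starts equalled those of GENCODE M21 for 14269 of 14795 matched genes of the knockdown dataset and 302 of 13870 of the knockout dataset, so coordinates came from GENCODE M21.

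Group means of log2(CPM + 0.1) were fitted with limma 3.58.1 (R 4.3.3) using a trended prior variance, the 3 knockout groups together, for genes averaging 0.5 CPM or more. The threshold was a Benjamini-Hochberg adjusted p under 0.07. Differences are on that scale, which understates those of low genes. The double KO entered a separate fit with the 3 groups. The procedure was tested on simulated data with independent noise for each gene and no GC dependence. That test does not cover the GC dependence of LIFR KO clones 2 and 3. Members, lists and tests were chosen with earlier results of these data known. Genes outside the 10 were named by the largest differences among calls, up to 2 per list and direction (in FAM3C KO by the largest differences over all lists, called or not), and the 5 highest correlations with Cth. Psph, Lars and Cars in FAM3C KO were named outside this rule, after their values were seen. The GC correction used a loess curve with span 0.3. It was first run with each library's mean deviation kept, and then with the whole curve subtracted. The second form is printed, and the choice was made after both had been seen. Alternatives were median-ratio rescaling, other pseudocounts, filters and thresholds, the replicate number as a block, and leaving out samples. CPM totals set the precision of low genes, and intervals cover the spread between samples.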

Additional observations from a re-analysis of the deposited data

Results flagged for a closer look

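In 6 genes the FAM3C KO clones and the LIFR KO clones all lay on opposite sides of the shPCBP1 mean, each FAM3C KO clone above and each LIFR KO clone below it. The mean log2 value of FAM3C KO exceeded that of LIFR KO by 1.81 for Cth, 1.63 for Trib3, 1.32 for Chac1, 0.73 for Atf4, 0.59 for Mthfd2 and 0.39 for Asns. Over all 12621 genes 4.83% showed this order and 1.77% the opposite one. After GC correction it held for Cth, Chac1 and Trib3, 3 of the 10 genes (1.76% of all genes), and not for Mthfd2, Asns and Atf4. With each library's mean kept in the correction it held for Cth, Mthfd2, Asns, Chac1 and Trib3, 5 of the 10 genes (5.63% of all genes). The result for Mthfd2 and Asns thus depended on the form of the correction. With the whole curve subtracted, the log2 differences from shPCBP1 in FAM3C KO and LIFR KO were 1.45 and -0.49 for Cth. They were 0.69 and -0.42 for Trib3, 0.65 and -0.19 for Chac1, and 0.33 and -0.01 for Atf4. For Mthfd2 they were 0.46 and -0.04, and for Asns 0.37 and 0.08. The difference between the 2 effects was not tested. Both are measured from the same shPCBP1 lines, and the FAM3C KO values were used to choose the genes. In the 4 shPCBP1 lines no library stood apart from the other lines in any of the 10 genes by Dixon's criterion. With 4 values the criterion flags only an extreme line, and it looks at 1 gene at a time. It does not cover the order of the lines across genes, where CT clone 1 was lowest in 7 genes and CT clone 2 highest in 7.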

How the results depend on the processing

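In the knockdown, the 10 genes gave 8 calls, when 80.1% of all genes were called. Leaving out each sample gave 6 to 8, when 70.4 to 78.2% of all genes were called. Shmt2 and Asns were lost without shPCBP1 replicate 2. A pseudocount of 1 CPM lowered Cbs from 2.488 to 1.176. With at least 1.5 fold required 3 of the 10 and 28 of the 112 listed genes were called, where 16% of all genes were higher and 15.1% lower. Leaving out a sample, without the fold requirement, gave 87 to 95 listed genes, at the same 70.4 to 78.2% of all genes. Median-ratio rescaling turned the sign of Mthfd2 (-0.001) and of Atf4 (0 to 3 decimals), and Mthfd2 ranged from -0.008 to 0.039 when each sample was left out.

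In FAM3C KO, 2 genes were wholly higher (10.1% of all genes), 2 to 6 when each sample was left out (11.1 to 16.5% of all genes), 4 with GC correction, with or without the block (12.3%), and 3 with the form of the correction that keeps the mean of each library (10.5%).

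In LIFR KO, 0 of the 10 genes were called, when 6.47% of all genes were. Leaving out each sample gave 0 to 7, when 0.0396 to 57.3% of all genes were called. The listed genes called were 12 as reported and 3 with adjusted p under 0.05. They were 0 with the groups fitted alone (0.278% of all genes) and 3 with median-ratio rescaling (3.87%). With either form of GC correction they were 2 (0.643% and 2.5% of all genes), and 0 to 66 when each sample was left out. Asns turned to 0.08 with median-ratio rescaling, 0.084 with GC correction and 0.054 with GC correction and the block, and Phgdh (0.055) and Shmt2 (0.09) turned with clone 1 alone. Keeping each library's mean in the GC correction left Cth at -0.678, Trib3 at -0.613 and Atf4 at -0.196 (limma adjusted p = 0.112, 0.174 and 0.419). The number of genes called over all genes was 816 as deposited, 489 after rescaling, and 81 or 315 after the 2 forms of GC correction. As deposited 115 of these were higher and 701 lower, and after rescaling 202 and 287.

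In the double KO against LIFR KO, the single call (Cth) was lost with adjusted p under 0.05, the 2 groups alone, each GC correction, no filter, a pseudocount of 1 CPM and the block, leaving 0, and leaving out a LIFR KO clone gave 0 to 1. Cth stayed between 1.786 and 2.078. Shmt2 turned to 0.097 with GC correction, 0.109 with GC correction and the block, 0.032 with the library mean kept and 0.022 with rescaling. Cbs turned to -0.016 with GC correction and the block and -0.285 with the block. When each LIFR KO clone was left out, Phgdh ranged from -0.39 to 0.098, Shmt2 from -0.295 to 0.265 and Cbs from -0.037 to 0.033. The cause was not tested in any of these.

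Replicate numbers are shared across groups, but deviations of same-numbered samples correlated at -0.179 to -0.0215 in the knockouts and 0.0512 in the knockdown, so they were taken as names only. With the replicate block 8 of the 10 genes were called in the knockdown, when 81.1% of all genes were. In LIFR KO 0 of the 10 and 0 of the listed genes were called, when 0.0792% of all genes were.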
